A study of Mus musculus with 6 samples.

Results

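Gene expression in liver was compared for 10 genes of fatty acid elongation and desaturation, the 5 elongases Elovl1, Elovl2, Elovl3, Elovl5 and Elovl6 and the 5 desaturases Fads1, Fads2, Fads3, Scd1 and Scd2. They were taken as every probe set that the platform annotation pairs with one of these symbols and no other gene, which gave 10 of the 18193 genes measured and 24 of the 45037 probe sets tested, 11 for elongases and 13 for desaturases. A probe set is a group of short array probes read together as 1 value. Liver RNA came from 3 female B6.C3H-6T mice, a congenic strain, and 3 female C57BL/6J mice, all aged 8 weeks and fed chow, with 1 mouse per array. B6.C3H-6T carries C3H DNA on chromosome 6 in a C57BL/6J background, and the series title describes it as a congenic mouse of low serum IGF-1. The congenic mice therefore differ from C57BL/6J by a chromosome segment and not by 1 altered gene, and it is a segment whose limits the labels leave out.

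Long-chain fatty acids are lengthened in the endoplasmic reticulum by a cycle whose first and limiting step is carried out by an Elovl enzyme. Desaturases of the Scd family place the first double bond in saturated chains, and those of the Fads family add further double bonds to dietary polyunsaturated acids. In liver, Elovl6 and Scd1 act on newly made palmitate and stearate and belong to the lipogenic program driven by insulin and the transcription factor encoded by Srebf1. Elovl2, Elovl5, Fads1 and Fads2 serve the polyunsaturated route, and Elovl3, which lengthens saturated and monounsaturated chains, is known in mouse liver for rhythmic and male-biased expression. In the gene table used for names, none of the 10 genes lies on chromosome 6. Elovl3, Fads1, Fads2, Fads3, Scd1 and Scd2, 6 of the 10, lie on chromosome 19, where Fads3, Fads2 and Fads1 are direct neighbours and Scd4 separates Scd2 from Scd1.

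The widest differences were in 3 of the 10 genes, and none of them passed the test over all probe sets. Elovl3 differed by -1.68 on the log2 scale (B6.C3H-6T minus C57BL/6J), Elovl6 by 1.04 to 1.38 over its 3 probe sets, and Scd1 by 0.33 and 0.97 over its 2. The 18 probe sets of the other 7 genes differed by -0.15 to 0.20. At a Benjamini-Hochberg adjusted p under 0.05 in limma, 0 of the 24 probe sets were called, against 0.0577% of all probe sets. At an unadjusted p under 0.05, 5 of 24 (20.8%) were counted, against 10.6% of all. Of these, 4 were higher and 1 was lower in B6.C3H-6T, where the shares over all probe sets were 5.74% higher and 4.82% lower. The mice of the strains did not overlap at 6 of 24 probe sets (25.0%), against 16.0% of all. At 5 of these every B6.C3H-6T mouse was above every C57BL/6J mouse, against 9.58% of all probe sets, and at 1 it was below, against 6.44%. A difference of more than 1 in size, a doubling or halving, was found at 4 of the 24, against 0.091% of all probe sets, all 4 of them in Elovl3 and Elovl6. Without B6.C3H-6T replicate 2 the 4 became 1, that of Elovl3, against 0.0377% of all probe sets. Of the 24, 19 were above 0, against 56.5% of all probe sets, and their median difference was 0.04, against 0.02 over all. Probe sets of 1 gene share a transcript, so these counts are not counts of independent events. The members were chosen with earlier results of these data known, so these shares are a description and not a test.

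**Figure D1:**
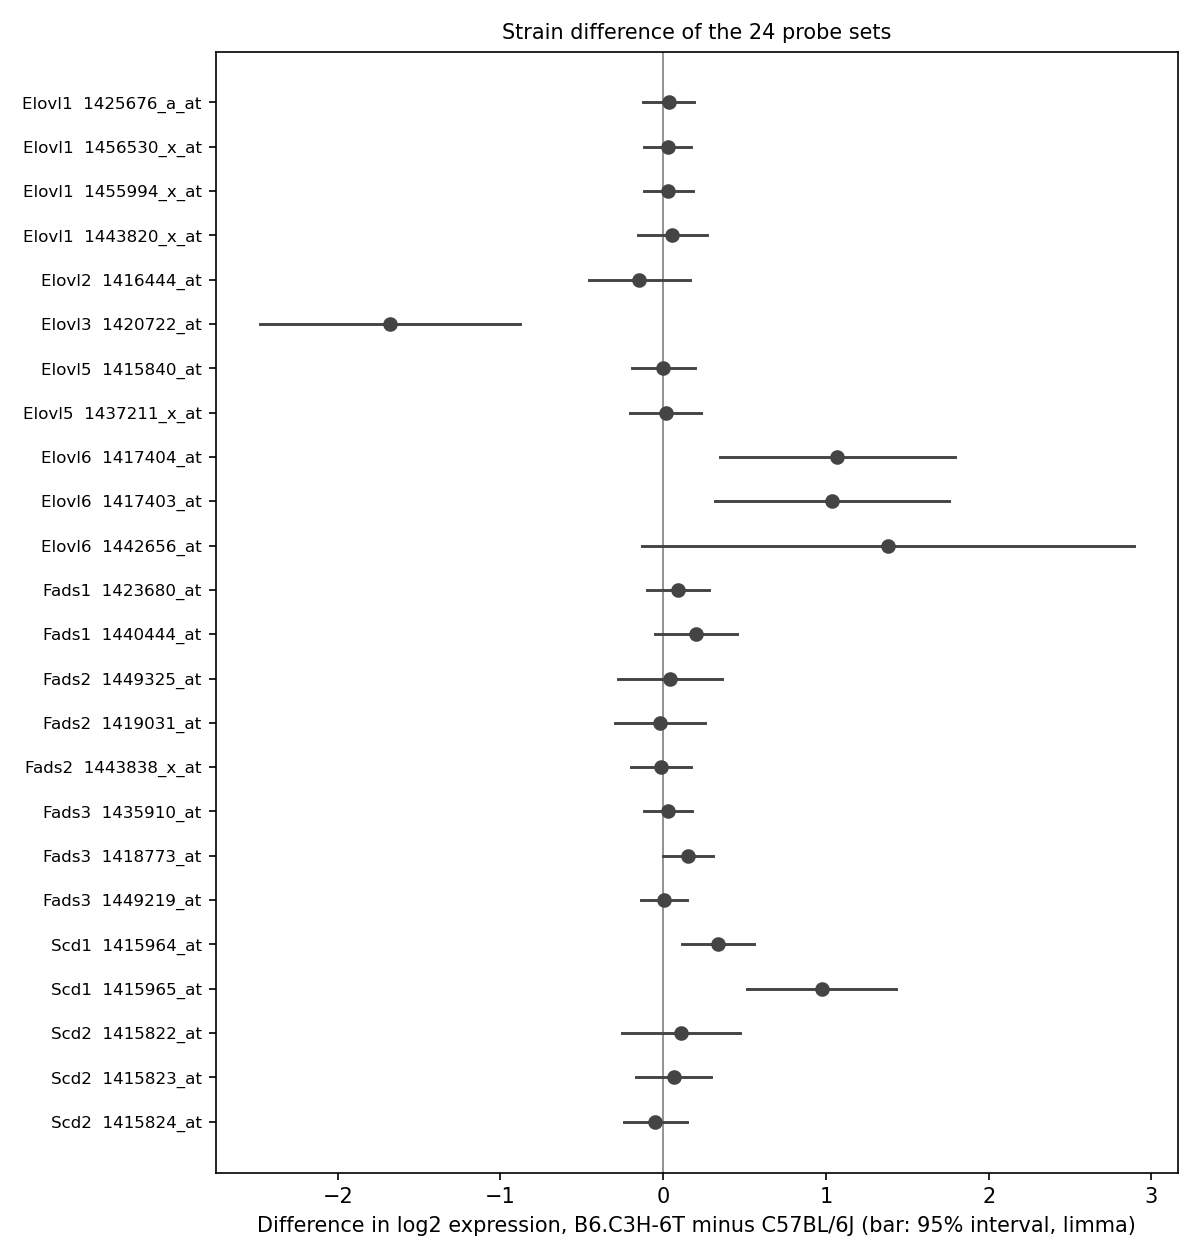
Difference in log2 expression between the strains (B6.C3H-6T minus C57BL/6J, x axis) for each of the 24 probe sets (y axis, by gene). Points are the differences and bars their 95% intervals from limma with 3 mice per strain. The intervals of Elovl3, Scd1 and 2 of the 3 Elovl6 probe sets leave out 0, and those of the other 7 genes hold it.

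The arrays had medians of 6.08 to 6.11 on the log2 scale and values between 3.14 and 14.56. On the first principal component of all probe sets, which took 37.3% of the variance, B6.C3H-6T replicate 2 lay at 27.3 and the other B6.C3H-6T mice at 11.8 and 2.29, while the C57BL/6J mice lay between -16.7 and -10.3. Differences above 0.1 in size that moved by more than 1.5 times without that mouse are given without it too. The tissue label was checked on hepatocyte markers such as Alb, Apoa1 and Hnf4a. Over 9 such genes the mean per array was 13.42 to 13.43 in B6.C3H-6T, against 13.30 to 13.36 in C57BL/6J. Of 21 probe sets, 2 had an unadjusted p under 0.05, and both were higher. They were of Tat (0.42 ± 0.09, limma adjusted p = 0.246) and Cps1 (0.26 ± 0.06, adjusted p = 0.273). At their brightest probe sets Alb, Apoa1, Hnf4a and Apob differed by 0.0233, 0.0163, 0.025 and -0.0425. Among markers of other cells, those of Kupffer cells and other myeloid cells had the largest share at an unadjusted p under 0.05. Of these 13 probe sets, 9 (69.2%) were lower at that p and none was called after adjustment. Their mean over 10 genes was 8.64 to 8.85 in B6.C3H-6T, against 8.92 to 9.17 in C57BL/6J. Counts at an unadjusted p under 0.05 were 3 of 15 for white adipocytes, 1 of 9 for brown adipocytes, 1 of 14 for sinusoidal endothelium and 1 of 19 for stellate cells. They were 0 of 9 for cholangiocytes, 1 of 15 for lymphocytes, 3 of 8 for pancreas and 2 of 6 for skin, against 10.6% of all probe sets. Those of pancreas, skin and stellate cells were all higher in B6.C3H-6T. Those of brown adipocytes, endothelium and lymphocytes were lower, and of white adipocytes 1 was higher and 2 were lower. Fewer cells of a type and less RNA per cell cannot be told apart in whole liver, and the part of other cells in the differences below was not tested.

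Among the elongases, Elovl3 had the widest difference. Its 1 probe set, 1420722_at, read 7.996, 6.71 and 8.06 in the B6.C3H-6T mice, against 8.77, 9.72 and 9.32 in the C57BL/6J mice. All 3 congenic mice were below all 3 C57BL/6J mice, and B6.C3H-6T replicate 2 was far below the other congenic mice. The difference was -1.68 ± 0.35 (log2 ± SE, 3 mice per strain), a 3.20-fold lower level, with a 95% interval of -2.48 to -0.88. It had an unadjusted p of 0.00103 and did not pass over all probe sets (limma adjusted p = 0.230). Without B6.C3H-6T replicate 2 the difference was -1.24 ± 0.23 (limma adjusted p = 0.319). The spread between mice of 1 strain was wide for this gene, with a pooled SD of 0.64, larger than that of 99.9% of all probe sets. Brown adipocyte markers, of interest because Elovl3 is also a brown fat gene, had array means of 5.35 to 5.50 in B6.C3H-6T, against 5.30 to 5.38 in C57BL/6J. These means were low, below the array medians of 6.08 to 6.11. The defining marker Ucp1 differed by 0.16 ± 0.08 (limma adjusted p = 0.551), and by 0.08 without B6.C3H-6T replicate 2. The 1 of 9 probe sets at an unadjusted p under 0.05, of the deiodinase gene Dio2, was lower in B6.C3H-6T by a difference of -0.21 ± 0.09 (limma adjusted p = 0.441), and the part of brown fat in the Elovl3 difference was not tested.

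Elovl6, which lengthens palmitate to stearate, was measured by 3 probe sets. Probe set 1417404_at read 10.10, 11.50 and 10.12 in the B6.C3H-6T mice, against 9.63, 9.48 and 9.40 in the C57BL/6J mice. Probe set 1417403_at read 8.89, 10.31 and 9.14 in B6.C3H-6T, against 8.71, 8.14 and 8.39 in C57BL/6J. Neither overlapped between the strains, and in both B6.C3H-6T replicate 2 was more than 1 log2 unit above every other mouse. Their differences were 1.07 ± 0.32 (2.10-fold, limma adjusted p = 0.335) and 1.04 ± 0.32 (2.06-fold, adjusted p = 0.346). Without B6.C3H-6T replicate 2 they were 0.60 ± 0.09 (limma adjusted p = 0.157) and 0.61 ± 0.16 (adjusted p = 0.594), so that this 1 mouse moved both by more than 1.5 times. Probe set 1442656_at read 7.81, 10.85 and 8.03 in B6.C3H-6T, against 7.92, 7.31 and 7.32 in C57BL/6J. Here the strains overlapped, since B6.C3H-6T replicate 1 was below C57BL/6J replicate 1. Its difference was 1.38 ± 0.67 (limma adjusted p = 0.512), and 0.41 ± 0.18 without B6.C3H-6T replicate 2 (adjusted p = 0.760).

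**Figure D2:**
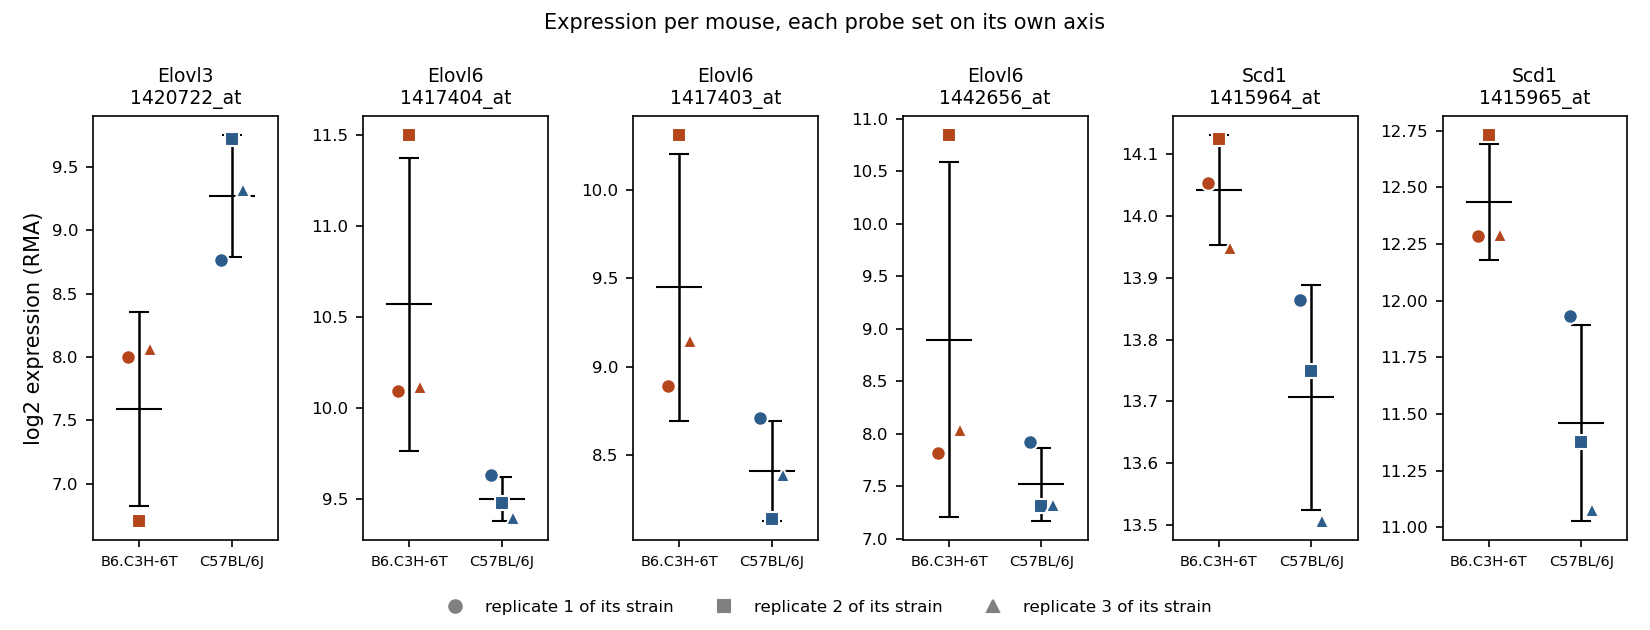
log2 expression (y axis, a scale of its own for each panel) in each B6.C3H-6T mouse (left) and each C57BL/6J mouse (right) for the probe sets of Elovl3, Elovl6 and Scd1. Symbols mark replicates, which are not paired across strains, and bars give the mean and SD of 3 mice. B6.C3H-6T replicate 2 is the lowest of all mice for Elovl3, at 6.71, and the highest at every Elovl6 and Scd1 probe set.

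The start region of Elovl6 is shown beside those of Elovl5 and Fads2, an elongase and a desaturase with small differences. RefSeq windows from 250 bases before to 50 bases after the gene start were at hand for Elovl1, Elovl2, Elovl5, Elovl6, Fads2 and Fads3, and Elovl3, Fads1, Scd1 and Scd2 had no entry. The windows below are written 5′ to 3′ on the gene's strand, from build GRCm38.p6, and capitals mark matches to a searched motif. They lie at chr3:129532136-129532435 on the plus strand for Elovl6, chr9:77917115-77917414 on the plus strand for Elovl5 and chr19:10101454-10101753 on the minus strand for Fads2.
Elovl6: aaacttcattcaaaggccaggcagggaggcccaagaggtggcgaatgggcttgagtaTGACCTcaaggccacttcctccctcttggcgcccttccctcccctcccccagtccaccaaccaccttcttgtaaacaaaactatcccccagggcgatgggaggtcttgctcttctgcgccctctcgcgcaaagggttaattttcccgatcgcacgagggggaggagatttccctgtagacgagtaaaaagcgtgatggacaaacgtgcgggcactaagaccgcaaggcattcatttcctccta
Elovl5: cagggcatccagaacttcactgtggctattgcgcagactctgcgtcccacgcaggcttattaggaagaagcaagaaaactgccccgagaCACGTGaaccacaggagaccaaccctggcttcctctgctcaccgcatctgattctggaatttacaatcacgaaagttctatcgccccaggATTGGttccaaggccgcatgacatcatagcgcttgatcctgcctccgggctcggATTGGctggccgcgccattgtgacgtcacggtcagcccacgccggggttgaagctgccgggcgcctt
Fads2: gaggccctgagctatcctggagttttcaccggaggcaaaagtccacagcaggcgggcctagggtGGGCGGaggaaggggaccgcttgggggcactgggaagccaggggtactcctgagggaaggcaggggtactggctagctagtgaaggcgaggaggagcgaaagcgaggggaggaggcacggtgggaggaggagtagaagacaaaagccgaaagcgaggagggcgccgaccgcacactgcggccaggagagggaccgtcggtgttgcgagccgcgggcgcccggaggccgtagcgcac

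The motifs searched on both strands were the sterol regulatory element core TCACNCCAC, the E-box CACGTG, the CCAAT box CCAAT, the GC box GGGCGG, the nuclear receptor hexamer AGGTCA, its direct repeats with a gap of 1 or 4 bases, which contain the hexamer, and the STAT5 palindrome TTCNNNGAA. The Elovl6 window held a hexamer on the opposite strand, which begins at position -193 from the gene start, a motif found in 16.3% of 32851 windows of that length. The Elovl5 window held an E-box, found in 7.15% of all windows, and 2 CCAAT boxes on the opposite strand, found in 37.4%. The Fads2 window held a GC box, found in 35.7%. The sterol element core (1.24% of windows), the repeats (0.0396% and 0.0152%) and the STAT5 palindrome (8.30%) were not among the letters of the 8 member windows. These matches describe the letters and are not shown to be bound sites.

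The elongases of the polyunsaturated route differed little. Elovl2, which lengthens the longest polyunsaturated chains, read 11.74, 11.19 and 11.71 in the B6.C3H-6T mice, against 11.64, 11.64 and 11.79 in the C57BL/6J mice. Only B6.C3H-6T replicate 2 was clearly below the rest. The difference was -0.15 ± 0.14 (limma adjusted p = 0.745), with a 95% interval of -0.45 to 0.16, and 0.03 without that mouse. Elovl5, the elongase of shorter polyunsaturated chains, read 13.20, 12.89 and 13.00 in B6.C3H-6T at probe set 1415840_at, against 12.99, 13.07 and 13.04 in C57BL/6J. The congenic mice lay on both sides of the C57BL/6J mice, and the difference was 0.00 ± 0.08, with a 95% interval of -0.19 to 0.19. The second Elovl5 probe set differed by 0.02 ± 0.10. Elovl1, a widely expressed elongase of saturated very long chains, read 9.65, 9.71 and 9.70 in B6.C3H-6T at 1425676_a_at, against 9.55, 9.74 and 9.67 in C57BL/6J. The strains overlapped at all 4 Elovl1 probe sets, whose differences ran from 0.03 to 0.06 and whose adjusted p were 0.868 or more.

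Among the desaturases the widest difference was in Scd1, the main stearoyl-CoA desaturase of liver, which makes oleate and palmitoleate. Probe set 1415965_at read 12.28, 12.73 and 12.29 in the B6.C3H-6T mice, against 11.93, 11.38 and 11.08 in the C57BL/6J mice. Probe set 1415964_at read 14.05, 14.12 and 13.95 in B6.C3H-6T, against 13.86, 13.75 and 13.51 in C57BL/6J. All congenic mice were above all C57BL/6J mice at both. The differences were 0.97 ± 0.20 (1.96-fold, 95% interval 0.52 to 1.43, limma adjusted p = 0.229) and 0.33 ± 0.10 (1.26-fold, interval 0.12 to 0.55, adjusted p = 0.329). Without B6.C3H-6T replicate 2 they were 0.83 ± 0.21 and 0.29 ± 0.11. The smallest adjusted p with 1 mouse left out came without C57BL/6J replicate 1, where 1415965_at differed by 1.21 ± 0.15 (limma adjusted p = 0.0689). The smallest differences came without C57BL/6J replicate 3, at 0.78 ± 0.19 (limma adjusted p = 0.522) and 0.24 ± 0.08 (adjusted p = 0.612).

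The Scd1 probe sets gave unequal sizes of the same direction. The value of 1415965_at less that of 1415964_at was -1.77 to -1.39 in the B6.C3H-6T mice, against -2.43 to -1.93 in the C57BL/6J mice, with no overlap. The strains differed by 0.64 in this quantity (two-sided exact permutation test, p = 0.1, the smallest p that 3 against 3 mice allow, and 0.933 adjusted over 14 pairs of probe sets). Probe set 1415964_at, at 13.51 to 14.12, was near the highest value of the arrays, 14.50 to 14.56, and whether signal near the ceiling made its difference smaller was not tested. In the other 13 pairs, taken over 7 further genes, the exact permutation p ran from 0.2 to 1. Among them Elovl6 probe sets 1417403_at and 1417404_at differed from each other by -0.03 between the strains, and 1442656_at and 1417404_at by 0.31. The value of 1442656_at less that of 1417404_at was -2.28 to -0.66 in B6.C3H-6T, against -2.16 to -1.71 in C57BL/6J.

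The other desaturases had intervals that held 0. Scd2, a stearoyl-CoA desaturase best known from brain and young animals, read 5.76, 6.47 and 6.13 in B6.C3H-6T at 1415822_at, against 6.18, 5.98 and 5.87 in C57BL/6J. B6.C3H-6T mice were both the lowest and the highest, and the 3 Scd2 probe sets differed by -0.05 to 0.11. Their means over the 6 mice were low, at 6.07, 5.86 and 4.94, below the array medians of 6.08 to 6.11. The 0.11, at 1415822_at, became -0.06 without B6.C3H-6T replicate 2. Fads1, which makes arachidonic acid, differed by 0.09 ± 0.08 at 1423680_at and by 0.20 ± 0.11 at 1440444_at (95% interval -0.05 to 0.45, limma adjusted p = 0.569). At 1440444_at it read 8.50, 8.08 and 8.27 in B6.C3H-6T, against 7.97, 8.22 and 8.05 in C57BL/6J, and B6.C3H-6T replicate 2 lay among the C57BL/6J mice. That difference was 0.30 without this mouse, and 0.09 when replicate 1 of the congenic strain was left out. Fads2, the first desaturase of the polyunsaturated route, read 12.05, 11.54 and 11.92 in B6.C3H-6T at 1449325_at, against 11.57, 11.93 and 11.89 in C57BL/6J. Its 3 probe sets differed by -0.02 to 0.04, with intervals inside -0.29 to 0.36. For Fads3, a relative that acts on sphingoid bases, probe set 1418773_at read 6.38, 6.45 and 6.31 in B6.C3H-6T, against 6.17, 6.29 and 6.23 in C57BL/6J. The strains did not overlap there, the difference was 0.15 ± 0.07 (limma adjusted p = 0.480), and the other Fads3 probe sets differed by 0.03 and 0.01. Over the 7 genes other than Elovl3, Elovl6 and Scd1, adjusted p ran from 0.480 to 0.999 and the 95% intervals together reached from -0.45 to 0.47.

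The members also differed in which mouse was extreme. B6.C3H-6T replicate 2 was the highest of all 6 mice at 8 of the 24 probe sets and the lowest at 6, so that it was an extreme at 14, where over all probe sets it was one at 35.2%. It was the highest at all probe sets of Elovl6 and Scd1, and the lowest at those of Elovl2, Elovl3 and Fads2 and at 1 of Elovl5. B6.C3H-6T replicate 1 was the highest at 10, among them all probe sets of Elovl5, Fads1 and Fads2, and the lowest at 4, and was an extreme at 34.0% of all probe sets. The median pooled SD within strains was 0.14 over the 24 probe sets, against 0.09 over all probe sets. It ranged from 0.04 for a Fads3 probe set to 1.22 for Elovl6 at 1442656_at.

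Genes with the most similar values over the 6 arrays were sought by the root mean square difference between log2 values, each probe set first set to a mean of 0. For the 3 members of widest range, taken by their probe set of highest mean, the 3 nearest genes are given as a description. Nearest to Elovl3 were Rab30, a gene of vesicle traffic (0.22), the pantetheinase gene Vnn1 (0.31) and the carbonic anhydrase gene Car3 (0.32), where the root mean square of Elovl3 itself was 0.99. Rab30 read 7.66, 6.09 and 7.59 in B6.C3H-6T, against 8.07, 8.70 and 8.58 in C57BL/6J, and, like Elovl3, was lowest in B6.C3H-6T replicate 2. The Car3 probe set was 1430584_s_at, which differed by -1.09 ± 0.34 and by -0.65 without B6.C3H-6T replicate 2, while the brightest Car3 probe set differed by 0.09 ± 0.07. Nearest to Elovl6 were the ATP citrate lyase gene Acly (0.07), the phosphatidate phosphatase gene Lpin1 (0.14) and the fatty acid synthase gene Fasn (0.17), where Elovl6 itself had 0.71. Acly at 1425326_at read 10.31, 11.55 and 10.36 in B6.C3H-6T, against 9.90, 9.67 and 9.63 in C57BL/6J, so that the same congenic mouse stood above the rest. Nearest to Scd2 were Paip1, Chpt1 and Nampt (0.05 each, where Scd2 itself had 0.23).

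**Figure D3:**
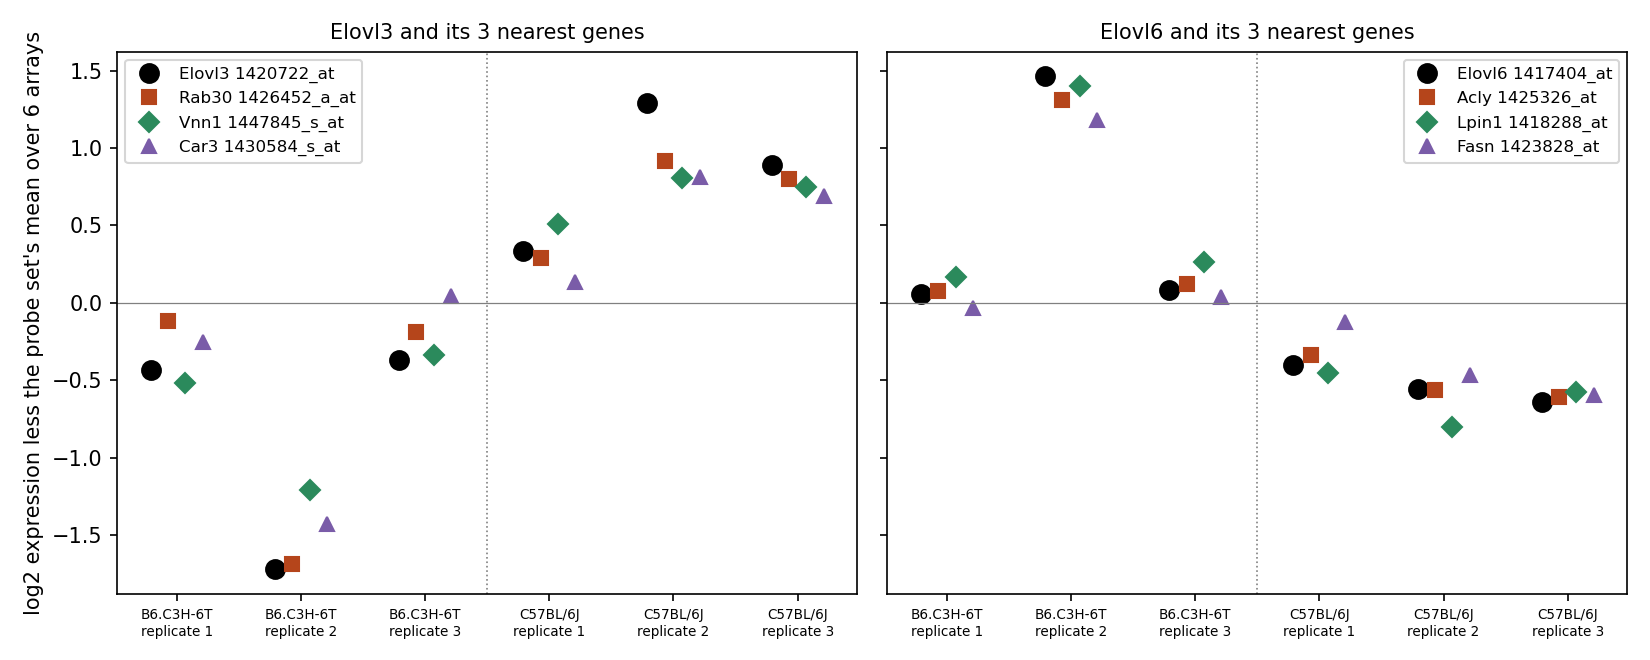
log2 expression less the mean of each probe set over 6 arrays (y axis) in each mouse (x axis, B6.C3H-6T left and C57BL/6J right of the dotted line) for Elovl3 and for Elovl6, each with its 3 nearest genes. B6.C3H-6T replicate 2 is lowest in the left panel and highest in the right panel for every gene drawn.

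The steps around the members were followed with lists of genes, each measured by all its own probe sets. Here too, probe sets of 1 gene are not independent. Over all probe sets tested, 5.74% were higher and 4.82% lower at an unadjusted p under 0.05. The partners of the elongation cycle and further family members were near the background, with 2 of 27 probe sets higher and 1 lower at an unadjusted p under 0.05 and a median difference of 0.01. Fads6, a predicted desaturase, differed by 0.19 ± 0.07 and Scd3, a stearoyl-CoA desaturase of skin, by 0.20 ± 0.08. The dehydratase gene Hacd3 differed by -0.20 ± 0.10 and Degs2, of sphingolipid desaturation, by 0.13 ± 0.07, and adjusted p of these 4 ran from 0.429 to 0.544. Hacd3 differed by -0.13 without B6.C3H-6T replicate 2 and by -0.12 without C57BL/6J replicate 2. Electron supply genes for desaturases had 6 of 10 probe sets higher and 1 lower at an unadjusted p under 0.05, with a median of 0.24. Of the 10 probe sets, 3 were of Cyb5b and 4 of Cyb5r3, so they are not independent. The list's mean over 5 genes overlapped between strains, at 10.11 to 10.17 in B6.C3H-6T and 10.03 to 10.20 in C57BL/6J. The cytochrome b5 gene Cyb5a differed by -0.01 ± 0.06 (limma adjusted p = 0.978). Cyb5b, a cytochrome of the outer mitochondrial membrane, differed by 0.30 ± 0.09 and the reductase gene Cyb5r3 by 0.23 ± 0.08, while the reductase gene Cyb5r1 differed by -0.40 ± 0.10 and Cyb5r2 by -0.01 ± 0.08 (limma adjusted p 0.289 to 0.968). These counts for electron supply were within 1.5 times of each other whichever mouse was left out.

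Genes listed under palmitate synthesis and acyl-CoA supply had 14 of 27 probe sets higher and 0 lower at an unadjusted p under 0.05, with a median of 0.24. The 27 probe sets were of 13 genes, and 6 of them were of Acly, so they are not independent. The acetyl-CoA synthetase gene Acss2 differed by 0.71 ± 0.17, the acetyl-CoA carboxylase gene Acacb by 0.54 ± 0.14 and Acly, at its brightest probe set, by 0.86 ± 0.26. Acsl4, an acyl-CoA synthetase gene for arachidonate, differed by 0.19 ± 0.07 and read 9.43, 9.57 and 9.49 in B6.C3H-6T, against 9.31, 9.28 and 9.34 in C57BL/6J. The adjusted p of these 4 ran from 0.257 to 0.390. Acly differed by 0.50 ± 0.11 and Acacb by 0.36 ± 0.08 without B6.C3H-6T replicate 2. The 14 became 9 without that mouse, 8 without C57BL/6J replicate 3 and 4 without moderation of the variances. The list's mean over 13 genes was 11.01 to 11.46 in B6.C3H-6T, against 10.73 to 10.88 in C57BL/6J.

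Genes of the peroxisomal finish of polyunsaturated acids and of acyl transfer to phospholipid had 9 of 32 probe sets lower and 1 higher at an unadjusted p under 0.05, with a median of -0.08. Hsd17b4, the peroxisomal bifunctional enzyme, differed by -0.21 ± 0.07, the acyltransferase genes Agpat3 and Mboat7 by -0.15 ± 0.06 and -0.17 ± 0.07, and the peroxisomal transporter gene Abcd2 by -0.33 ± 0.18 (limma adjusted p 0.378 to 0.551). Abcd2 differed by -0.10 ± 0.10 without B6.C3H-6T replicate 2. The 9 became 3 without C57BL/6J replicate 2 and 5 without replicate 3 of either strain or without the second B6.C3H-6T mouse. The 1 higher became 2 without B6.C3H-6T replicate 3.

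Regulators of the members had 3 of 28 probe sets higher and 4 lower at an unadjusted p under 0.05, with a median of 0.02. Srebf1, whose product drives lipogenic genes, read 10.95, 12.03 and 10.86 in B6.C3H-6T, against 10.86, 10.48 and 10.38 in C57BL/6J. B6.C3H-6T replicate 2 was again well above the rest and the other mice overlapped, with a difference of 0.70 ± 0.28 (limma adjusted p = 0.435) and of 0.33 ± 0.14 without that mouse (adjusted p = 0.760). Ppara, the nuclear receptor gene of fatty acid oxidation, read 11.19, 10.50 and 10.96 in B6.C3H-6T, against 11.29, 11.42 and 11.25 in C57BL/6J. The congenic mice were all below, with a difference of -0.43 ± 0.15 (limma adjusted p = 0.391) and of -0.24 ± 0.10 without B6.C3H-6T replicate 2 (adjusted p = 0.753). Insig1, of sterol feedback, differed by 0.35 ± 0.16 and Spring1, a regulator of that pathway, by 0.27 ± 0.14. They differed by 0.21 ± 0.15 and 0.10 ± 0.10 without B6.C3H-6T replicate 2, and Insig1 differed by 0.55 ± 0.11 without B6.C3H-6T replicate 1. Counts of regulators moved with single mice, to 5 higher without replicate 1 of either strain and to 1 higher without C57BL/6J replicate 3. They moved to 1 lower without C57BL/6J replicate 2 and 2 lower without C57BL/6J replicate 3. Without moderation of the variances the regulators had 1 higher and 0 lower, and with trend and robust moderation 1 higher and 4 lower. Elongation partners went to 0 higher without replicate 2 of either strain or without replicate 3 of C57BL/6J, and to 2 lower without replicate 1 of either strain. Over the other settings they had 0 to 4 higher and 0 to 2 lower. No probe set of these 5 lists passed over all probe sets in limma.

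**Figure D4:**
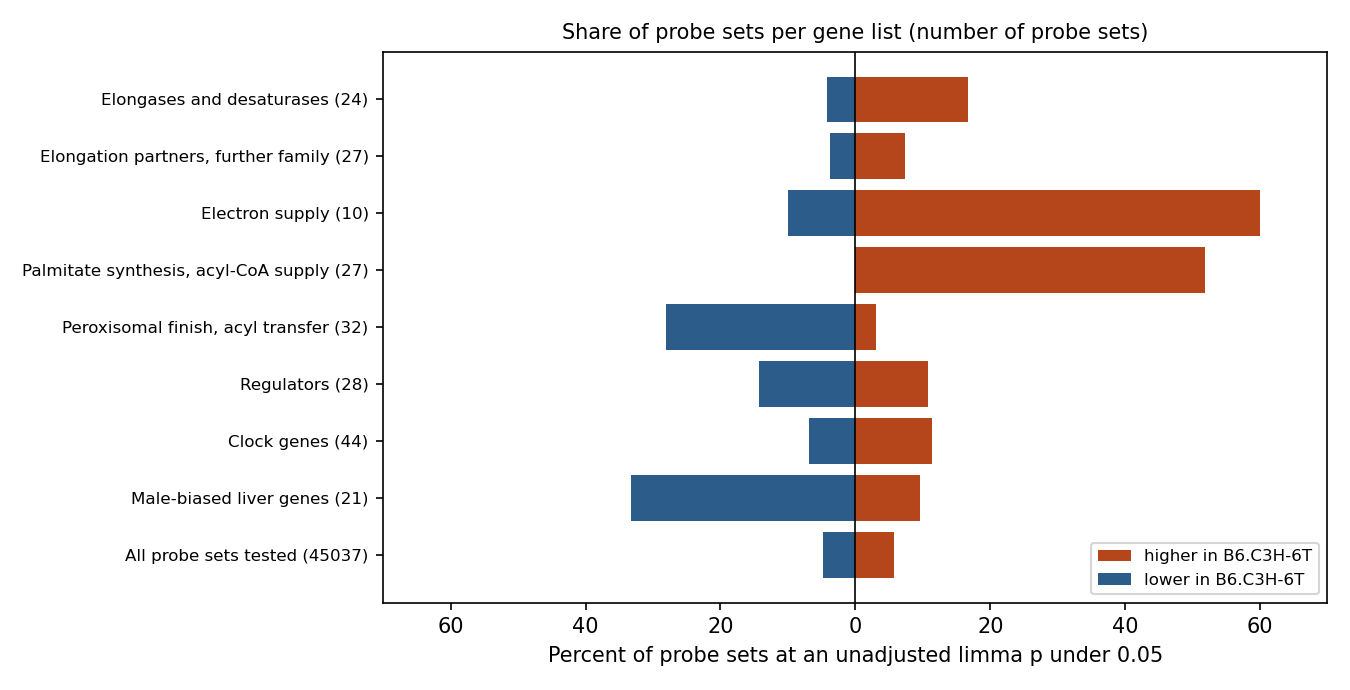
Percent of probe sets at an unadjusted limma p under 0.05 (x axis) that were higher (right) or lower (left) in B6.C3H-6T, for each gene list (y axis, number of probe sets in brackets) and for all probe sets tested. Genes of palmitate synthesis and acyl-CoA supply have 14 of 27 probe sets on the right and 0 on the left, and 6 of the 27 are of Acly.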

How the data were processed

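Liver RNA of 6 mice was measured on Affymetrix arrays, 1 mouse per array. The authors deposited log2 expression values and the submitters' processing notes name RMA and affy, without versions. Their range fits a log2 scale. RNA was copied from an oligo(dT) primer, so probe sets read mainly the 3′ part of transcripts.

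Of 45101 probe sets, 64 controls were left out. Names came from the platform annotation, and chromosomes from a RefSeq table of GRCm38.p6. Of 100 genes in the pathway lists, 87 had a probe set of their own and 13 were not analysed here. Each probe set was fitted by strain in limma 3.58.1 (lmFit and eBayes without covariates, R 4.3.3), with Benjamini-Hochberg adjustment over 45037 probe sets. The fit was run on simulated data with independent normal noise, only to check that it returned planted differences. Those data held no outlying mouse. For pairs of probe sets of 1 gene, an exact permutation test (two-sided) was used. No batch was given, and the number of arrays limits precision.

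The members and lists were chosen with earlier results of these data known. Text names all member probe sets and up to 4 genes per pathway list of smallest p, each by its brightest probe set. It also names the 3 nearest genes of the 3 members of widest range at their brightest probe set. Ucp1 and the hepatocyte markers were named to check tissue, and Cyb5a because it was the remaining gene of its list. Alternatives were trend and robust moderation, no moderation, centred arrays, array weights, a filter on dim probe sets, 1 probe set per gene, no _x_at or _s_at probe sets, and leaving out each array.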

Additional observations from a re-analysis of the deposited data

How the results depend on the processing

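Under 13 alternatives 0 of the member probe sets passed the adjusted threshold in limma, and the signs of Elovl3, Elovl6 and Scd1 did not turn. With 1 probe set per gene, 2 members were higher at an unadjusted p under 0.05, since fewer probe sets were tested. Small differences turned sign. Centred arrays gave -0.0255 and -0.0086 for Elovl5 and -0.0203 for Fads3 at 1449219_at, and array weights gave -0.0049 for Elovl5 at 1415840_at. Leaving out 1 array gave ranges of -0.0192 to 0.0762, -0.0128 to 0.0567 and -0.0208 to 0.127 for Elovl1, of -0.243 to 0.0325 for Elovl2, and of -0.0839 to 0.0693 and -0.084 to 0.0759 for Elovl5. It gave -0.0718 to 0.192, -0.12 to 0.0979 and -0.0696 to 0.0452 for Fads2, -0.0109 to 0.052 and -0.0138 to 0.0291 for Fads3, and -0.0642 to 0.29 and -0.0156 to 0.173 for Scd2. Differences of the named genes outside the members, and the 4 members that differed by more than 1, were recomputed without 1 array as an alternative chosen after seeing the data. The 4 became 1 to 5, and signs turned for Cyb5r2 (-0.0511 to 0.0461), Paip1 (-0.0498 to 0.254), Chpt1 (-0.0686 to 0.246) and Nampt (-0.0302 to 0.265). Over the 7 pathway lists the 1 probe set past the adjusted threshold, of Serpina12, became 0 without moderation and 0 to 1 without 1 array. The 33 higher at an unadjusted p under 0.05 became 13 without moderation, 18 with 1 probe set per gene and 15 to 38 without 1 array. The 25 lower became 9 with 1 probe set per gene and 14 to 28 without 1 array. Apart from those set by fewer probe sets, the cause of these changes was not tested. The count over all probe sets moved too, being 26 in the fit reported, 0 without moderation and 11 to 17 without 1 array. No paired analysis was possible because the labels give each mouse a number of its own.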

Other observations

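Elovl3 is known in mouse liver as a rhythmic and male-biased gene, so lists of clock genes and of male-biased liver genes were also counted. Clock genes had 5 of 44 probe sets higher and 3 lower at an unadjusted p under 0.05, with a median difference of 0.09. Per1, Per2 and Per3, repressor genes of the clock, differed by 0.56 ± 0.21, 0.34 ± 0.12 and 0.42 ± 0.18, and Cry1 by 0.25 ± 0.12 (limma adjusted p 0.413 to 0.498). Without B6.C3H-6T replicate 2 these differences were 0.30 ± 0.13, 0.20 ± 0.10, 0.21 ± 0.13 and 0.13 ± 0.10. Cry1 was low, at 4.35 to 4.97 over the 6 mice, below the array medians of 6.08 to 6.11. Per1 read 7.91, 8.84 and 8.23 in the B6.C3H-6T mice, against 7.96, 7.57 and 7.77 in the C57BL/6J mice, and was highest in B6.C3H-6T replicate 2, the mouse of lowest Elovl3. The 5 higher became 8 when replicate 1 of C57BL/6J or replicate 3 of B6.C3H-6T was left out, and 1 when replicate 2 of B6.C3H-6T was. They became 0 when replicate 3 of C57BL/6J was left out, where the 3 lower became 6. Without moderation of the variances 0 clock probe sets were higher and 4 lower. The labels give no hour of tissue collection.

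Male-biased genes had 7 of 21 probe sets lower and 2 higher at an unadjusted p under 0.05, with a median of -0.15. Over all probe sets the shares were 4.82% lower and 5.74% higher. The 21 probe sets were of 13 genes, so they are not independent. Their lowest difference, -1.88, was at a probe set that was not the brightest of its gene. All mice were female, and some genes of the list read below the array medians of 6.08 to 6.11. The vaspin gene Serpina12 was the only one of the 7 lists' probe sets to pass over all probe sets. It read 7.44, 7.88 and 7.44 in B6.C3H-6T, against 8.61, 8.92 and 8.97 in C57BL/6J, and fell by 1.24 ± 0.14 on the log2 scale (limma adjusted p = 0.0198). The call was lost when replicate 2 or 3 of C57BL/6J, or replicate 1 or 3 of B6.C3H-6T, was left out. The organic anion transporter gene Slco1a1 read 8.61, 7.33 and 8.53 in B6.C3H-6T, against 8.84, 9.93 and 10.45 in C57BL/6J, and was lowest in the same mouse as Elovl3 (-1.59 ± 0.42, limma adjusted p = 0.307). Unlike the members, Slco1a1 lies on chromosome 6, which carries the C3H segment, and whether it lies inside that segment was not tested. Cyp7b1 differed by -0.23 ± 0.08 (limma adjusted p = 0.403) and Cyp2d9, also on the list, by 0.45 ± 0.15 (adjusted p = 0.380), and by 0.25 ± 0.08 without B6.C3H-6T replicate 2. The 2 higher became 0 when replicate 3 of C57BL/6J was left out, and 1 when replicate 1 or 2 of B6.C3H-6T was. Without moderation of the variances 0 were higher and 3 lower. These lists were chosen with earlier results known, and no relation to Elovl3 was tested.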
